A study of Mus musculus with 24 samples.

Results

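The 10 genes described here mark the melanocyte, the pigment cell of the skin: Dct, Tyr, Tyrp1, Pmel, Mlana, Slc45a2, Mitf, Sox10, Kit and Ednrb. They were chosen by name, with earlier results of these data known. All 10 were found among the 54087 gene symbols of the read count table. They were also among the 17094 genes with enough counts to be tested. RNA-Seq was done on dorsal skin of C57BL/6 mouse embryos at E18.5, shortly before birth, that were wild type (WT), heterozygous (HET) or homozygous (KO) for a CRISPR/Cas9 deletion of the tandem Dsg1a, Dsg1b and Dsg1c genes. The deletion line came from a single founder that was backcrossed, both sexes were included, and no other allele or treatment distinguished the groups. Desmoglein 1, the product of the deleted genes, is a desmosomal adhesion protein of keratinocytes, the cells among which epidermal melanocytes sit. The comparisons set melanocyte transcripts beside its partial and complete loss. No member passed the test in any of the 3 comparisons between genotypes, and the 6 pigment genes varied together between samples of the same genotype.

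Melanocytes arise from the neural crest, enter the skin as melanoblasts, and settle in the epidermis and the hair follicles. There they build melanosomes, the organelles in which melanin is made and which are handed to keratinocytes. Mitf, a basic helix-loop-helix transcription factor, binds E-box elements of the sequence CATGTG, the core of the M-box, in front of pigment genes, and Sox10 acts upstream of it. Keratinocytes and dermal cells feed the lineage through ligands such as Kit ligand and the endothelins, which are received by Kit and Ednrb. Kit is also carried by mast cells, Sox10 by Schwann cells, Ednrb by other cells that include endothelial cells, and Mitf by other lineages, so in whole skin these 4 transcripts need not come from melanocytes alone.

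The sequences of the M-box cores are shown first, because the M-box is the element through which Mitf is known to act on the enzyme genes. The RefSeq promoter table of build GRCm38.p6 held 9 entries for 6 of the 10 members, and Pmel, Mlana, Slc45a2 and Sox10 had no entry. In the 250 bases before the start, CATGTG on either strand was found for 3 members, Tyr, Tyrp1 and Dct, and for none of the entries of Kit, Mitf and Ednrb. Over all 32851 promoter entries, 12.3% held it. Each site is given 5′ to 3′ on the strand of its gene as 30 bases, with the core in capitals:
Tyr, chr7:87493516-87493545, minus strand: gaaaaagttagtCATGTGctttgcagaaga
Tyrp1, chr4:80834155-80834184, plus strand: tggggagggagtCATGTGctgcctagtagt
Dct, chr14:118052379-118052408, minus strand: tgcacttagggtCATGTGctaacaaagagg
Dct, chr14:118052461-118052490, minus strand: gcttggctgggaCACATGagcccaataaag
The first 3 sites read in the forward direction and share the 10 letters GTCATGTGCT. This run was read from the 3 sites themselves, so its presence in them is a description only. The last one is the core on the opposite strand. The core began at position -21 from the start of Tyr, -46 from that of Tyrp1, and at positions -150 and -232 from that of Dct. In GENCODE vM21 the Tyr and Dct sites lie upstream of the gene, and the Tyrp1 site lies in an exon, because that annotation begins Tyrp1 farther upstream than RefSeq does. The related E-box CACGTG was absent from all 9 entries and present in 6.02% of all entries, and the Sox motif ACAAAG was found for Tyrp1 and Dct and in 16.5% of all entries. These matches describe letters and are not evidence of binding.

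There were 24 libraries, 8 for each genotype. Their titles carry 15 numbers, 9 of which occur in both of 2 title formats, called series 1 and series 2. Libraries that shared a number and a genotype were summed, which gave 5 columns for each genotype, numbered by ascending title number. Libraries held 8.98 to 20.96 M read counts and columns 15.3 to 33.7 M. Summed over the 3 deleted genes, columns held 723 to 933 CPM (the standard depth-scaled read count, here with TMM factors) in WT, 371 to 492 in HET and 0.103 to 0.902 in KO, as the genotype labels say. The 2 libraries of WT replicate 2 went against being from the same animal. The library of series 1 held 325 CPM of Y-linked transcripts and 0.264 CPM of Xist, and that of series 2 held 0.154 and 564. Without WT replicate 2 the members' log2 differences between KO and WT ran from -0.14 to 0.37, and with its libraries as 2 columns from -0.17 to 0.27, and no member was called either way. Y-linked transcripts reached 282 to 409 CPM in WT replicate 5, HET replicates 1, 4 and 5, and KO replicates 2, 3 and 4. The columns besides these and WT replicate 2 held at most 0.368 CPM, so the genotypes were not balanced for them. With the Y-linked level as a covariate, the members' KO to WT log2 differences ran from -0.15 to 0.33, with none called. The labels do not say that title numbers are animals, so p-values measure the spread between these columns.

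**Figure D1:**
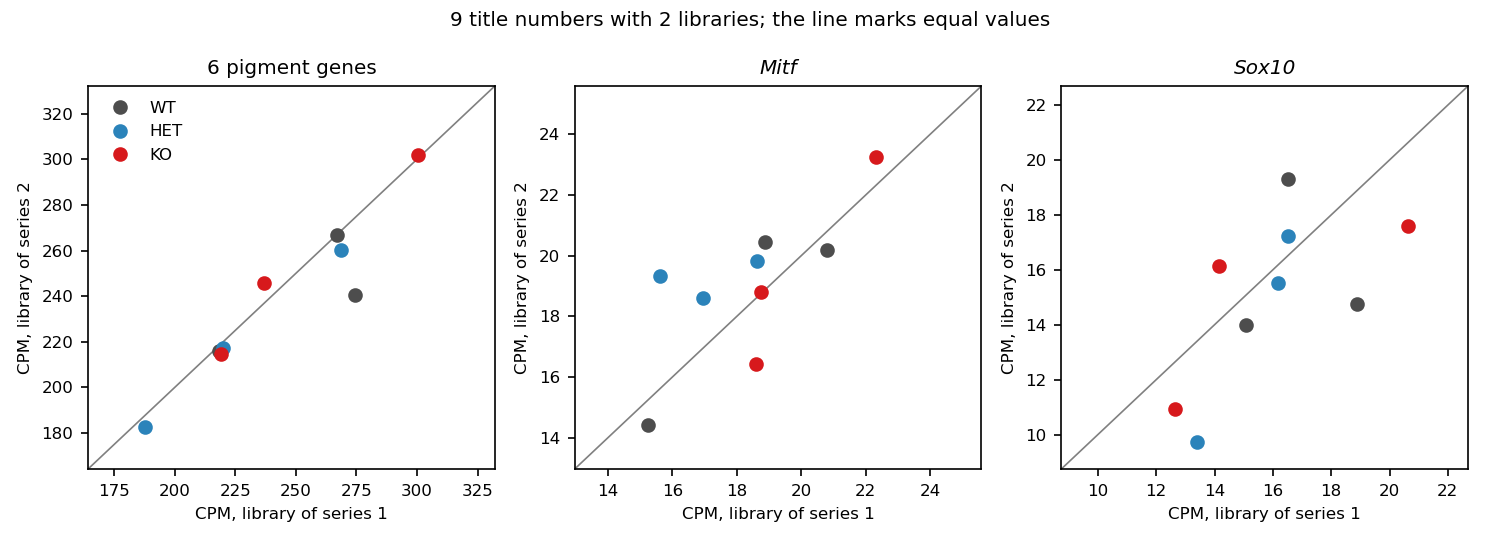
Normalised read counts (CPM) of the summed 6 pigment genes, Mitf and Sox10 in the 9 title numbers that have 2 libraries, with the library of series 1 on the horizontal axis and that of series 2 on the vertical axis; each point is a number, coloured by genotype, and the line marks equal values. The points of the pigment sum lie close to the line, apart from WT replicate 2 at 275 and 241 CPM, and those of Sox10 scatter more widely.

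Repeat libraries of a number gave close values of the pigment sum, and those of single genes with few counts scattered more. For the summed CPM of Dct, Tyr, Tyrp1, Pmel, Mlana and Slc45a2, the SD within a pair of libraries was 0.050 on the log2 scale. The SD between title numbers of the same genotype was 0.35. The 2 figures cover unlike sets, here and for the single genes below. The first covers the 9 numbers with 2 libraries. The second covers all 15 columns, among them the extremes HET replicate 5 and KO replicate 5, which have no repeat. Dct, the most counted of them, had 0.030 within pairs and 0.34 between numbers. For Tyrp1 the figures were 0.23 and 0.67, for Slc45a2 0.20 and 0.35, and for Sox10 0.17 and 0.24. The pairs include WT replicate 2, whose libraries went against being from the same animal. Without it, the SD within pairs was 0.0225 for the sum and 0.0264 for Dct. It was then 0.1585 for Tyrp1, 0.1804 for Slc45a2 and 0.1611 for Sox10. The smallest counts were 53 for Mlana and 59 for Tyrp1, both in HET replicate 5, while Dct had at least 1524 counts in every column.

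Levels were first compared between genes per kilobase of merged exon (GENCODE vM21). On this scale Pmel, which forms the fibrils on which melanin is laid down, stood highest in WT at 27.6 CPM per kb ± 2.78 (SD, n = 5), and Dct followed at 23.98 ± 2.665. Ednrb had 9.78 ± 1.72, Sox10 5.25 ± 0.477, Kit 4.92 ± 0.245, Mlana 4.44 ± 1.117 and Tyrp1 4.28 ± 0.794. Mitf had 3.01 ± 0.516, Tyr 2.63 ± 0.279 and Slc45a2 1.79 ± 0.283 CPM per kb. The ranges of mean ± SD of Pmel and Dct overlapped, as did those of neighbours from Sox10 down to Tyr, while Ednrb stood apart from Dct and from Sox10, and Slc45a2 from Tyr. Of the summed CPM of the 6 pigment genes in WT, Dct took 57.6% and Pmel 25.8%, so the sum mostly follows these 2.

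**Figure D2:**
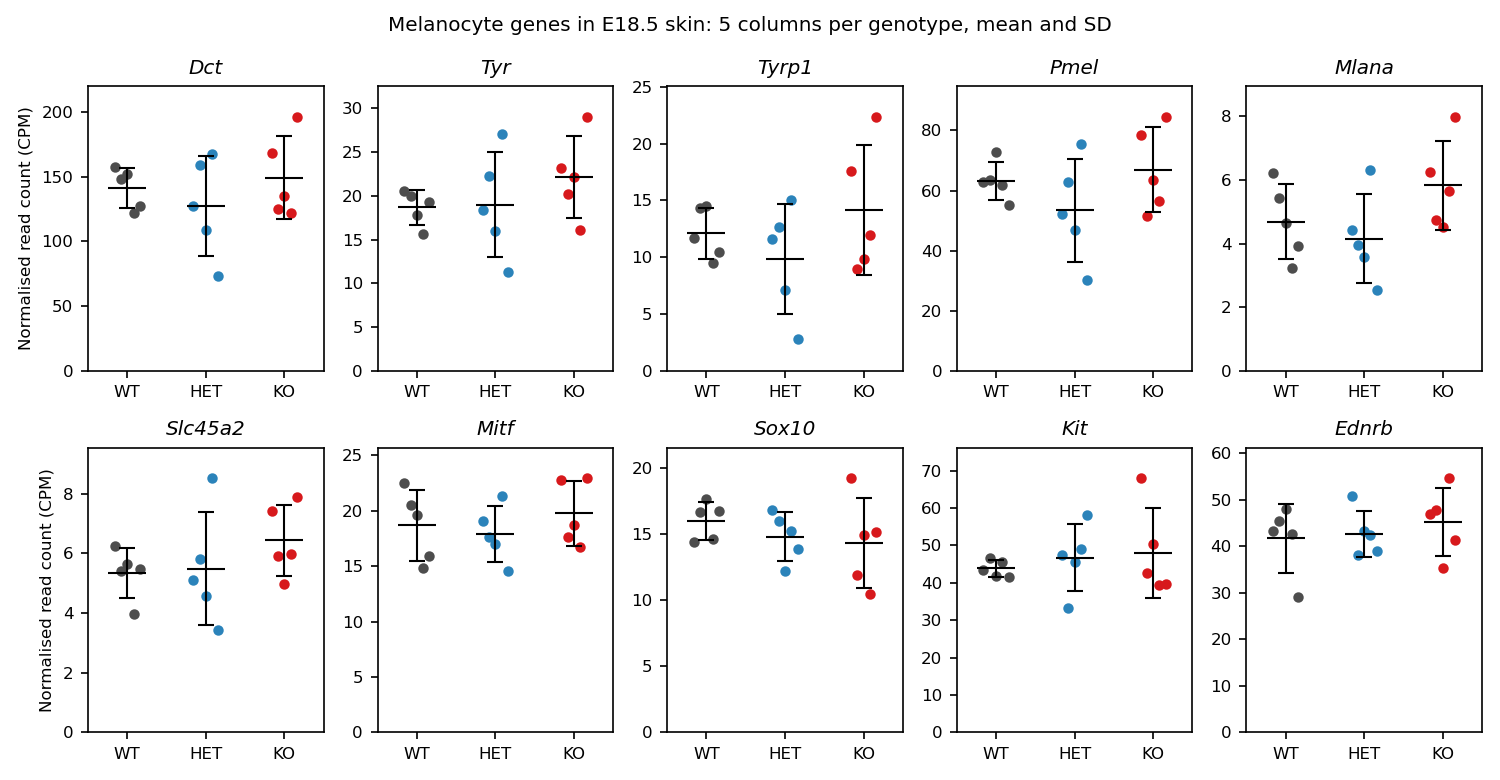
Normalised read count (CPM, vertical axes from 0) of each of the 10 genes in the 5 columns of each genotype (horizontal axis), with the mean and SD in black. The genotypes overlap in every panel, and HET replicate 5 is the lowest column for the 6 pigment genes.

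Among the melanin enzymes, Dct (dopachrome tautomerase, an early marker of melanoblasts) had 157, 148, 152, 122 and 127 CPM in WT replicates 1 to 5. In HET it had 127, 159, 109, 168 and 72.9, and in KO 168, 125, 135, 122 and 196. Of the KO values 3 lay within the WT range and 2 above it, and HET replicate 5 lay far below every other column. The KO to WT log2 difference was 0.08 (SE 0.19, adjusted p = 0.841, edgeR), with a 95% interval of -0.33 to 0.48, which is a fold of 0.798 to 1.40. Tyr, tyrosinase, the rate-limiting enzyme of melanin synthesis, ranged from 15.6 to 20.6 CPM in WT, 11.3 to 27 in HET and 16.1 to 29 in KO, and its KO to WT log2 difference was 0.25 (SE 0.19, adjusted p = 0.473, edgeR). Tyrp1, tyrosinase-related protein 1, was the most variable member in HET and KO, while in WT Mlana varied more. It had 11.7, 14.3, 14.5, 9.53 and 10.5 CPM in WT, 11.6, 12.7, 7.14, 15 and 2.82 in HET, and 17.6, 9, 9.83, 12 and 22.4 in KO. Within HET the highest column was 5.32-fold the lowest, against 1.53-fold in WT. Its intervals were accordingly the widest, with a log2 difference of 0.22 (-0.53 to 0.97) KO to WT, -0.30 (-1.06 to 0.45) HET to WT and 0.53 (-0.23 to 1.28) KO to HET.

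Among the melanosome proteins, Pmel ranged from 55.2 to 73.0 CPM in WT, 30.1 to 75.7 in HET and 51.4 to 84.6 in KO. Slc45a2, a transporter that sets the pH of the melanosome, ranged from 3.97 to 6.26, 3.45 to 8.52 and 4.98 to 7.90 CPM. Mlana, a small melanosomal membrane protein also known as MART-1, had 6.21, 5.45, 4.65, 3.24 and 3.93 CPM in WT, 4.43, 3.94, 3.57, 6.31 and 2.54 in HET, and 6.25, 4.76, 4.51, 5.65 and 8 in KO. For Mlana, 4 of the 5 HET columns lay below all KO columns and the other, HET replicate 4, lay above 4 of them. Its KO to HET log2 difference of 0.50 (SE 0.23, 95% interval 0.01 to 0.99) was the one value among 30 with an unadjusted p under 0.05 (0.0473, adjusted p = 0.305, edgeR). It fell short of the threshold, and so did the same difference without HET replicate 4 (0.69, adjusted p = 0.136, edgeR). KO and WT overlapped for all 3 genes, and the KO to WT log2 differences were 0.08 (SE 0.19) for Pmel, 0.27 (SE 0.20) for Slc45a2 and 0.31 (SE 0.23) for Mlana, with adjusted p from 0.453 to 0.841 (edgeR).

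The summed CPM of the 6 pigment genes shows the spread between columns. It was 265, 257, 268, 216 and 222 in WT, 219, 266, 187, 300 and 123 in HET, and 301, 216, 240, 219 and 348 in KO. As a percentage of the WT mean, HET had 89.3% ± 28.2 and KO 108% ± 23.6 (SD over 5 columns), beside an SD of 10.02 for WT. Each difference from WT was smaller than the SD of the mutant group, and that of HET was slightly larger than the SD of WT. The coefficient of variation was 10.02% in WT, 31.5% in HET and 21.9% in KO. The extremes were HET replicate 5 at 50.2% and KO replicate 5 at 142% of the WT mean, and both title numbers have a library of series 2 only. In series 1 alone, with 3 libraries for each genotype, KO had 98.5% of WT. In these bulk samples, fewer melanocytes and less RNA per melanocyte cannot be told apart.

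Mitf had 22.5, 20.5, 19.6, 14.8 and 15.9 CPM in WT, 19.1, 17.6, 17.0, 21.3 and 14.5 in HET, and 22.8, 17.6, 18.7, 16.8 and 22.9 in KO. Its KO to WT log2 difference was 0.08 (SE 0.13, 95% interval -0.20 to 0.37, adjusted p = 0.752, edgeR). Sox10, the neural crest factor that melanocytes and Schwann cells share, had 14.4, 16.6, 17.7, 14.6 and 16.8 CPM in WT, 16.8, 16, 12.2, 15.2 and 13.8 in HET, and 19.2, 11.9, 14.9, 10.4 and 15.1 in KO. Sox10 was the single member whose mean was lowest in KO, but KO replicate 1 was the highest of all 15 columns. The KO to WT log2 difference was -0.16 (SE 0.14, 95% interval -0.46 to 0.14, adjusted p = 0.547, edgeR).

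Kit, the receptor tyrosine kinase that melanoblasts need for survival and migration, had 43.5, 46.6, 42, 45.6 and 41.6 CPM in WT, which is a coefficient of variation of 4.97%. It had 47.3, 33.1, 45.6, 49.1 and 58.1 in HET and 68.0, 42.5, 50.4, 39.5 and 39.7 in KO. The 5 WT columns were tightly grouped and lay inside the range of both other genotypes. The KO to WT log2 difference was 0.13 (SE 0.15, adjusted p = 0.639, edgeR). Ednrb, the endothelin receptor of the lineage, had 43.3, 45.4, 48, 42.7 and 29.1 CPM in WT, 50.8, 38.2, 43.2, 42.4 and 39.1 in HET, and 46.9, 47.9, 35.3, 54.7 and 41.4 in KO. WT replicate 5 stood below the other 14 columns, and the KO to WT log2 difference was 0.12 (SE 0.13, adjusted p = 0.646, edgeR).

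**Figure D3:**
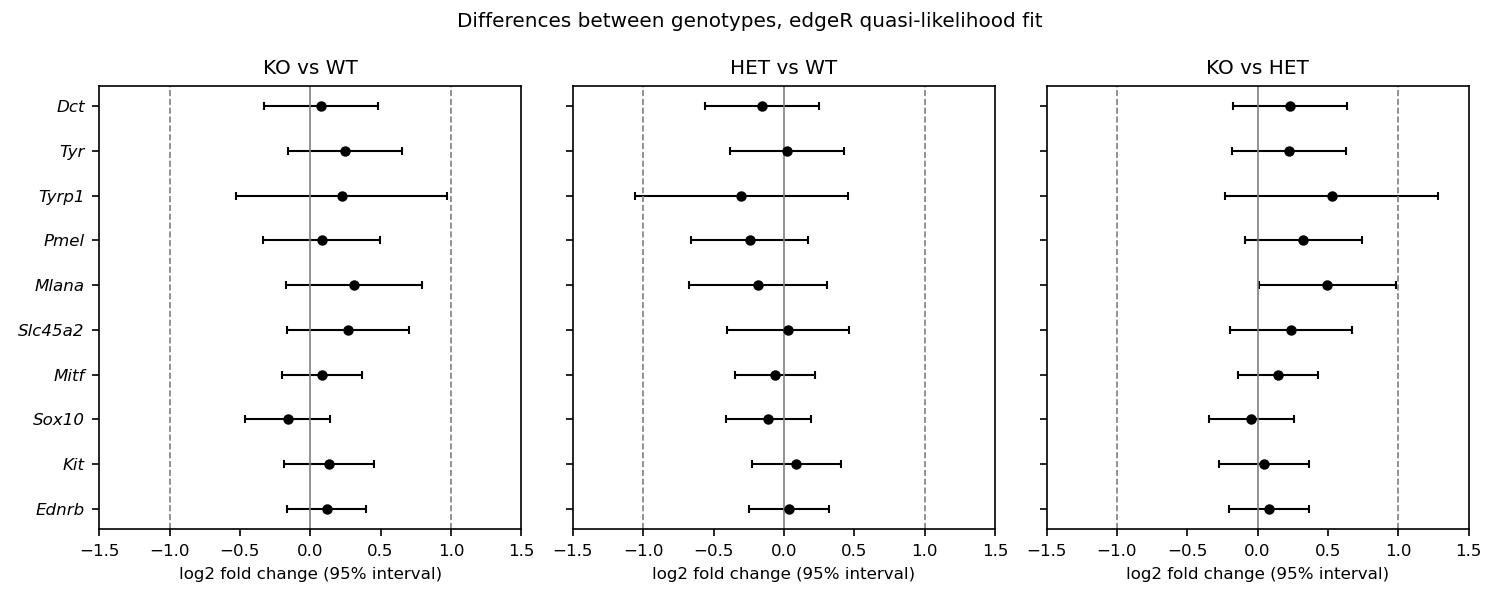
Log2 fold change of each of the 10 genes (vertical axis) in 3 comparisons of genotypes, from the edgeR quasi-likelihood fit on 15 columns; points are estimates, bars are 95% intervals, and dashed lines mark a change of 1. Of the 30 intervals, 29 cross 0, and the intervals of Tyrp1 are the widest.

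Across the 3 comparisons, 0 of 10 members were called by the thresholds that the study states, which ask for both an adjusted p no higher than 0.1 and a log2 change of at least 1 in size. Over all genes tested, 0.322% were called KO to WT, 0% HET to WT and 0.181% KO to HET. At an adjusted p of 0.1 with no limit on the fold, 0 of 10 members passed (edgeR), beside 1.15% of all genes KO to WT, 0% HET to WT and 0.333% KO to HET. At both thresholds DESeq2 called 99 genes higher and 91 lower KO to WT, limma-voom called 56 and 91, and either called 0 members. The study reported more genes at these thresholds in these data than the edgeR fit called here. At an unadjusted p under 0.05 there were 0 members KO to WT (19.3% of all genes), 0 HET to WT (1.58%) and 1 KO to HET (16% of all genes). Between KO and WT, 9 of 10 members were higher in KO, with a median log2 difference of 0.12 beside -0.01 over all genes, 48.6% of which were higher. In series 1 alone 5 were higher and 5 lower, so that balance was not found in each series. That subset also lacks KO replicates 4 and 5, along with columns of WT and HET. Without KO replicate 5 alone, 7 were higher and 3 lower. The 6 pigment genes varied together, so the directions of the members are not independent of each other. Between HET and WT, 4 were higher and 6 lower, with a median of -0.09, and between KO and HET 9 were higher, with a median of 0.23. KO to WT and HET to WT share the WT columns. As to what the data could show, all 10 intervals for KO to WT lay within a log2 change of 1 in either direction, as did 84.7% of those of all genes, and 9 of 10 did so in each of the other comparisons, Tyrp1 being the exception.

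Although genotype did not separate them, the pigment genes moved together. After each genotype was centred on its mean, the 15 pairs among the 6 pigment genes had a Pearson r of 0.765 to 0.957 over the 15 columns (log2 CPM, median 0.860). The closest pairs were Dct with Pmel and Dct with Tyrp1 (0.953). Without HET replicate 5, the lowest column, the pairs ran from 0.656 to 0.914. Within series 1, over 9 libraries, they ran from 0.502 to 0.947, and within series 2, over 15 libraries, from 0.683 to 0.931. All points of one column share a library and its depth, and these values are descriptions.

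**Figure D4:**
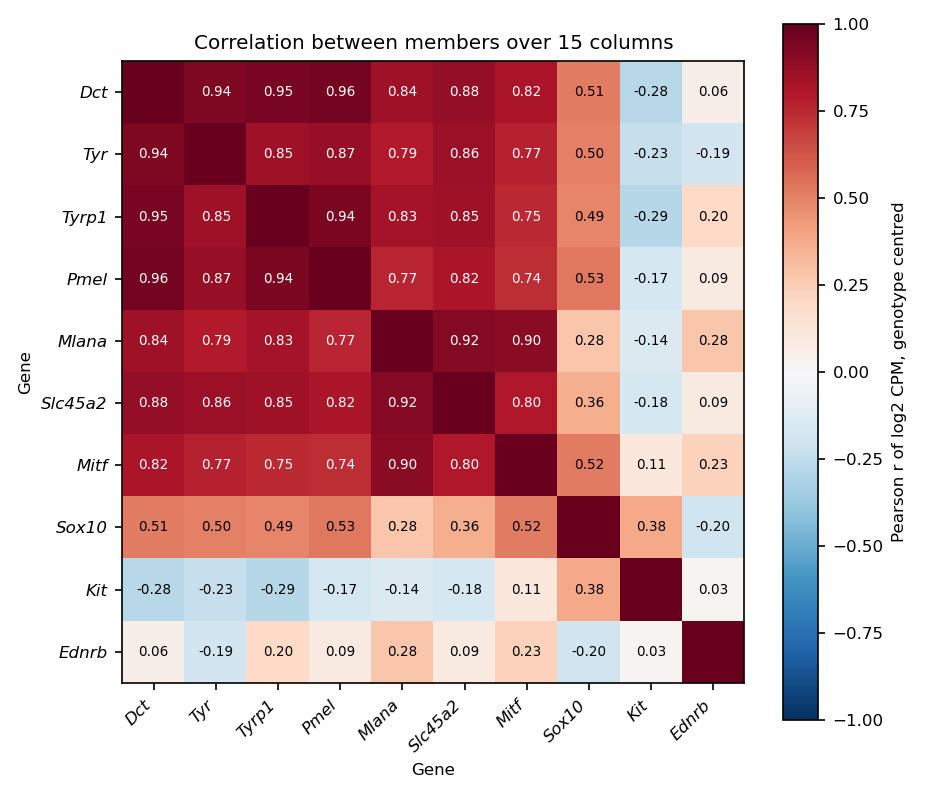
Pearson r of log2 CPM between each pair of the 10 genes over 15 columns, after each genotype was centred on its mean; both axes list the genes and the colour scale runs from -1 to 1. The 6 pigment genes and Mitf form a block of values of 0.74 to 0.96, while the values of Kit and Ednrb with the pigment genes run from -0.29 to 0.28.

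The 4 regulators and receptors differed in how far they followed the pigment genes. Against the mean log2 CPM of the 6 pigment genes, Mitf had r = 0.844 and Spearman's rho = 0.893 over 15 columns (permutation p = 2e-05 for each, adjusted over 8 relations 0.00016), and r was 0.819 without the 2 farthest columns, HET replicate 5 and KO replicate 5. Within series 2 it was 0.769. Sox10 had r = 0.356 (permutation p = 0.191, adjusted 0.306) and rho = 0.364 (permutation p = 0.183, adjusted 0.385), Ednrb had r = 0.157 (permutation p = 0.558, adjusted 0.637) and rho = 0.136 (permutation p = 0.628, adjusted 0.771), and Kit had r = -0.191 (permutation p = 0.474, adjusted 0.632) and rho = -0.104 (permutation p = 0.713, adjusted 0.771). The value for Kit changed sign to 0.366 without those 2 columns.

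Each of the 4 was also set against markers of another cell type that carries it. Sox10 had r = 0.635 with 14 Schwann cell markers (permutation p = 0.0108, adjusted 0.0431) and rho = 0.446 (permutation p = 0.0965, adjusted 0.385). That relation rested on 2 columns, KO replicates 4 and 1, without which r was 0.193, and without KO replicate 4 alone it was 0.360. Kit had r = 0.376 with 14 mast cell markers (permutation p = 0.165, adjusted 0.306) and rho = 0.321 (permutation p = 0.242, adjusted 0.388), with r = 0.036 without KO replicate 4 and HET replicate 2. Ednrb had r = 0.420 with 9 endothelial markers (permutation p = 0.119, adjusted 0.306) and rho = 0.357 (permutation p = 0.192, adjusted 0.385), with r = 0.303 without its 2 farthest columns. Mitf had r = 0.073 with 8 macrophage markers (permutation p = 0.792, adjusted 0.792) and rho = 0.082 (permutation p = 0.771, adjusted 0.771), and the value was -0.198 without its 2 farthest columns.

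The genes outside the 10 whose pattern was most like that of the 6 pigment genes, among 15049 such genes with a mean of at least 20 counts, were named by the same genotype-centred r. Ptgds, prostaglandin D2 synthase, led with 0.966. Then came Slc24a5, a melanosomal cation exchanger (0.954), Syt4 (0.946), Trpm1, a cation channel that melanocytes carry (0.924), and Mcoln3 (0.919). Lhx2, a transcription factor of hair follicle stem cells, followed with 0.902, then Pax3, a regulator of the melanoblast lineage (0.892), Tspan10 (0.888), Gpnmb, a melanosomal glycoprotein (0.887), and Lbh (0.881). Of these 10, 6 were on the list of other melanocyte genes and 4, Ptgds, Syt4, Lhx2 and Lbh, were not, Lhx2 being on the list of hair follicle markers. Without HET replicate 5, r was 0.767 for Tspan10, 0.783 for Gpnmb and 0.798 for Lbh. For the others of the 10 it then ran from 0.841 (Pax3) to 0.956 (Ptgds). With all columns, an r of 0.8 or above was reached by 26 of the 15049 genes (0.173%), among them 7 of 15 other melanocyte genes. The rest of that list included Mc1r (0.635), the melanocortin receptor, Rab27a (0.010) and Rab38 (-0.143), which serve melanosome transport, and Cited1 (-0.604).

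**Figure D5:**
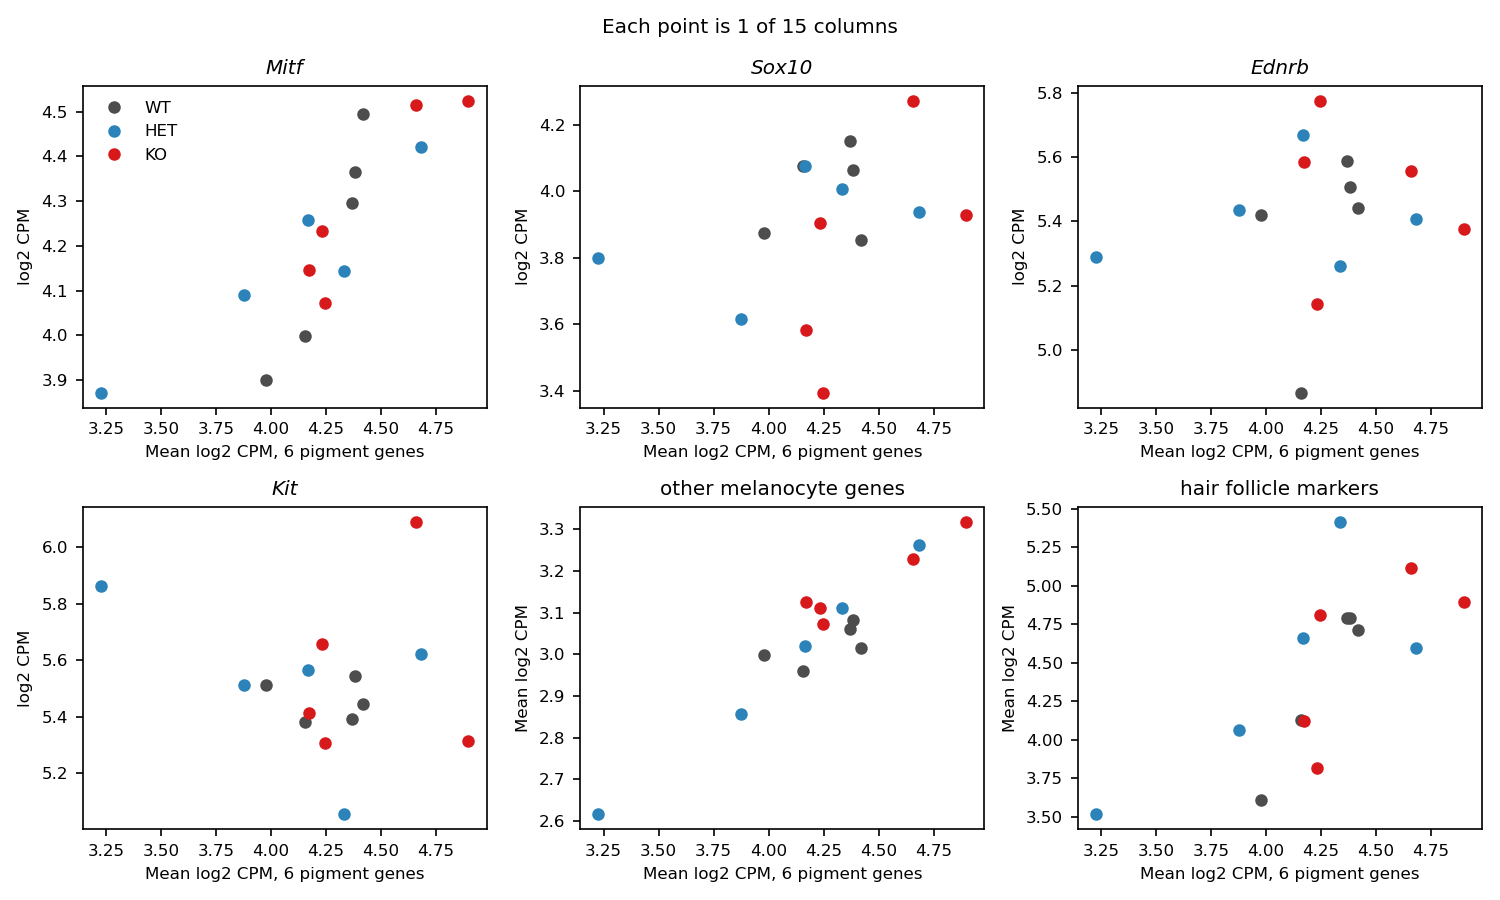
Log2 CPM of Mitf, Sox10, Ednrb and Kit, and the mean log2 CPM of the other melanocyte genes and of the hair follicle markers (vertical axes), against the mean log2 CPM of the 6 pigment genes (horizontal axes); each point is 1 of 15 columns, coloured by genotype. Mitf (r = 0.844), the other melanocyte genes (r = 0.949) and the hair follicle markers (r = 0.723) rise along the horizontal axis, and Kit and Ednrb do not.

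The mean of 11 lists of other genes was set against that of the 6 pigment genes in the same way. The other melanocyte genes had r = 0.949 (permutation p = 1e-05, the smallest that the permutations can give, adjusted 0.00011) and rho = 0.796 (permutation p = 0.00056, adjusted 0.00616). The 12 hair follicle markers, which include Shh, Edar, Msx2 and the hair keratin regulator Hoxc13, had r = 0.723 (permutation p = 0.0012, adjusted over 11 lists 0.0066) and rho = 0.732 (permutation p = 0.00263, adjusted 0.0145). With genotypes centred, r for the follicle markers was 0.767. Without the 2 farthest columns, HET replicate 5 and WT replicate 4, it was 0.554 (permutation p = 0.0499, not adjusted over the 11 lists). Their summed level ran from 235 to 462 CPM in WT, 188 to 718 in HET and 252 to 572 in KO, and the lowest column, HET replicate 5, was also the lowest for the pigment genes. The part of the follicles in the pigment levels was not tested. With the follicle markers as a covariate, an alternative added after the values were seen, the members' KO to WT log2 differences ran from -0.19 to 0.25 and 0 were called. The other 9 lists had an r between -0.402 (endothelial) and 0.389 (lineage regulators), with adjusted permutation p from 0.352 to 0.774, and a rho between -0.368 and 0.561, with adjusted permutation p from 0.120 to 0.944.

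Other genes of the pathway are given by list. Of 16 other melanocyte genes, 0 passed the test in either direction KO to WT at an adjusted p of 0.1, which 1.15% of all genes tested did, and 12 had a higher and 4 a lower estimate (median 0.17). The 3 with the smallest p were Slc24a5, with 0.32 (SE 0.15), the cystine transporter Slc7a11, with 0.57 (SE 0.31), and Pax3, with 0.34 (SE 0.22), at adjusted p of 0.272 to 0.399 (edgeR). Of 19 genes of melanosome trafficking, 0 passed, with 10 higher and 9 lower. The nearest was Vps33a, a subunit of vesicle-tethering complexes, whose WT columns had 46.4 CPM ± 2.03 (SD, n = 5) against 59.2 ± 9.91 for KO (log2 difference 0.35, adjusted p = 0.104, edgeR). Atp7a, which loads copper onto tyrosinase, had 0.49 (SE 0.18, adjusted p = 0.168, edgeR), and Lyst, which controls the size of lysosome-related organelles, had 0.45 (SE 0.18, adjusted p = 0.193, edgeR). All of these genes are used by cells other than melanocytes.

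Of 16 ligands and signals to melanocytes, 14 were tested and 0 passed KO to WT, with 4 higher and 10 lower (median -0.14). HET to WT leaned the same way, with 3 higher and 11 lower (median -0.10). KO to HET had 9 higher and 5 lower (median 0.02). Cxcl1 and Csf2 had too few counts to be tested, with 111 and 32 in all. Only transcript levels were read, so agouti signalling was not tested. Asip, the agouti gene, is listed in the table under its older symbol a. Its mean was 12.8 CPM ± 2.22 (SD, n = 5) for WT, 10.65 ± 1.197 for HET and 7.89 ± 4.02 for KO, with a KO to WT log2 difference of -0.70 (SE 0.27, unadjusted p = 0.0185, adjusted p = 0.181, edgeR). Kitl, the ligand of Kit, had 199 ± 16.8 CPM in WT and 170 ± 28.8 in KO (-0.22, SE 0.11, adjusted p = 0.267, edgeR), and Cxcl12, a chemokine that guides melanoblasts, had -0.20 (SE 0.15, adjusted p = 0.470, edgeR). Of 10 regulators of the lineage, 0 passed, and the 3 with the smallest p were Tfap2b with 0.46 (SE 0.16), Tfap2a with 0.36 (SE 0.14) and Zeb2 with -0.26 (SE 0.10), at adjusted p of 0.145 to 0.203 (edgeR). The paralogues Tfap2a and Tfap2b are also expressed in keratinocytes.

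Markers of the other cells that carry the 4 shared transcripts were read beside them. All 14 mast cell markers had a lower estimate in KO than in WT and 0 passed (median -0.37, adjusted p from 0.197, edgeR). Their summed level was 1640 to 2385 CPM in WT, 1281 to 2557 in HET and 906 to 2028 in KO. The 906 CPM were those of KO replicate 4, and the other KO columns had 1537 to 2028. Kit, which mast cells also carry, had a KO to WT estimate of 0.13 in the same columns. Of 14 Schwann cell markers, 4 were higher and 10 lower (median -0.16), beside -0.16 for Sox10. Their summed levels were 408 to 565 CPM in WT and 407 to 505 in KO. The mean of that sum was not lower in KO, with 466 ± 44.7 CPM (SD, n = 5) against 458 ± 65.0 in WT. Of 9 endothelial markers 7 were higher (median 0.07), beside 0.12 for Ednrb, and of 8 macrophage markers 6 were lower (median -0.11), beside 0.08 for Mitf. None of the markers on these 4 lists was at 0 in any column, so none of these cell types was absent by its markers, and their part in the 4 transcripts was not tested. The 8 dermal fibroblast markers were all lower in KO by estimate (median -0.24) and 7 of 8 epidermal keratinocyte markers were higher (median 0.20), with 0 of either passing the test. KO replicate 4 was also the lowest KO column for the summed fibroblast markers, at 14900 CPM against 22540 to 29900 in the other KO columns. The WT columns had 22810 to 36990. The part of this column in the mast cell and fibroblast estimates was not tested.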

How the data were processed

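The deposited table holds raw counts, whole numbers of reads for each gene symbol made by the authors, in 1 column for each of 24 libraries (poly(A), directional kit). The submitters' processing notes name STAR and HTSeq, with no versions, and the build hg19, although the symbols are those of mouse; the annotation and the use of strand are not given in the sources used here, so overlapping or antisense genes cannot be separated. Libraries with the same title number and genotype were summed to 15 columns. Genes kept by filterByExpr were scaled by TMM and tested with the robust quasi-likelihood test of edgeR 4.0.16 (R 4.3.3), all 3 genotypes in one fit, with Benjamini-Hochberg adjustment over 17094 genes. CPM are these scaled counts; log2 CPM used a prior count of 2. Correlations used 100000 two-sided permutations. Alternatives used DESeq2 1.42.0, limma 3.58.1 (voom), other scaling, filters, covariates and subsets. The scripts were tested on simulated data. The members and lists were chosen with earlier results of these data known. Besides members, the text names the 3 genes of each list with the smallest p KO to WT (for the melanocyte pathway lists) and the 10 genes most like the pigment genes; Mc1r, Rab27a, Rab38 and Cited1 were chosen after their values were seen. Depth limits the precision of low genes such as Mlana, with 53 to 208 counts a column. No sequence or coordinate comes from the deposited table; sites come from RefSeq and GENCODE on GRCm38.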

Additional observations from a re-analysis of the deposited data

Results flagged for a closer look

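In each genotype, the highest and lowest of the 5 columns were compared with their neighbours for the 10 genes, their pigment sum and the marker lists, 66 groups in all, of which 4 stood out by Dixon's criterion of 0.71. Chance alone flags about 1 in 20 such groups. Ednrb in WT replicate 5 was low, at 29.1 CPM against 42.7 to 47.96 in the other 4 WT columns, and its gap was 0.722 of the range. The mean log2 CPM of the lineage regulators was high in KO replicate 1, at 5.50 against 5.201 to 5.286 (0.713). In WT replicate 4 the mast cell markers were low, at 4.87 against 5.32 to 5.50 (0.718), and the dermal fibroblast markers were high, at 10.1 against 9.80 to 9.87 (0.787). The same column had the lowest CPM of the WT group for Mitf and for 5 of the 6 pigment genes, Dct, Tyr, Tyrp1, Mlana and Slc45a2, and the lowest pigment sum, at 216 CPM. The part of this column's other differences in those levels was not tested.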

How the results depend on the processing

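The count of members called was 0 of 10 in all 3 comparisons under each of the 27 alternatives, while calls over all genes ran from 3 to 240 KO to WT (55 as reported), 0 to 1 HET to WT and 3 to 126 KO to HET (31 as reported). The lowest adjusted p of any member was 0.129, for Mlana KO to HET by limma-voom on 24 libraries. Of 780 recomputed log2 differences 32 changed sign, none with an unadjusted p under 0.05, and the cause was not tested. In series 1 alone these were Dct -0.022, Tyrp1 -0.24, Pmel -0.071 and Ednrb -0.15 KO to WT, Slc45a2 -0.13, Kit -0.17 and Ednrb -0.10 HET to WT, and Sox10 0.020 and Ednrb -0.051 KO to HET. HET to WT, Tyr was -0.045 in series 2 alone, -0.015 by limma-voom and -0.016 with the follicle covariate, and Slc45a2 was -0.082 by limma-voom and -0.0012 with that covariate. With 1 column left out in turn, HET to WT ran from -0.13 to 0.16 for Tyr, -0.13 to 0.013 for Mitf, -0.17 to 0.16 for Slc45a2, -0.070 to 0.089 for Ednrb and -0.0035 to 0.19 for Kit. KO to HET ran from -0.18 to 0.049 for Sox10 and -0.12 to 0.14 for Kit, and KO to WT from -0.027 to 0.20 for Kit, -0.038 to 0.14 for Dct and -0.016 to 0.16 for Pmel. The r of Sox10 with the Schwann cell markers missed an adjusted permutation p of 0.05 with RLE factors (0.619), with genotypes centred (0.614), in series 2 alone (0.472) and without its 2 farthest columns (0.193). With 1 column left out it ran from 0.360 to 0.741, and 9 of these 15 runs missed that threshold. The r of Mitf with the macrophage markers changed sign in series 2 alone (-0.013) and without its 2 farthest columns (-0.198), and ran from -0.157 to 0.238 with 1 column left out, and the r of Kit with the pigment genes was 0.366 without 2 columns and ran from -0.525 to 0.171. The r of Mitf with the pigment genes stayed past the threshold, with 0.769 in series 2 alone and 0.813 to 0.866 with 1 column left out. The pigment sum ran from 80.9% to 99.0% of WT in HET and 99.5% to 113% in KO with 1 column left out. No paired analysis was possible because the title numbers are not shared between genotypes, and replicate numbers only name the columns.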
